A study of Homo sapiens with 7 samples.

Results

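RNA-Seq data of 10 genes of the cell motility machinery were examined in esophageal squamous cell carcinoma (ESCC) cells in which TP63, SOX2 or CCAT1 had been silenced. The genes were chosen by name, with earlier results of these data known, out of 56236 genes to which transcripts could be assigned. Counts of them past a limit are therefore descriptive. They were the receptor tyrosine kinases MET and AXL, the SRC family kinases YES1, SRC, FYN and LYN, the p21-activated kinases PAK1, PAK2 and PAK4, and FSCN1, which encodes fascin. The libraries came from 2 established ESCC lines, TE5 and KYSE140, infected with a non-targeting scramble shRNA or with 1 shRNA construct against TP63 (shTP63) or SOX2 (shSOX2). TE5 cells were also infected with 1 shRNA against CCAT1 (shCCAT1), a long non-coding RNA. All shRNAs were cloned in the pLKO.1 lentiviral vector, and all cells were grown in DMEM with 10% fetal bovine serum. Each condition of a line is a single library (7 in all), without replicates, and the effect of an shRNA cannot be told apart from off-target effects of its construct. The knockdown libraries of a line shared a sequencing lane, and scramble was run in a different lane, for TE5 on a different flow cell, so that silencing and lane cannot be told apart in comparisons with scramble.

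MET is the receptor for hepatocyte growth factor and AXL the receptor for GAS6; both trigger cell scattering and invasion. SRC family kinases relay signals from such receptors and from integrins to focal adhesions, and p21-activated kinases act downstream of the small GTPases RAC1 and CDC42 on the actin cytoskeleton. Fascin bundles actin filaments in filopodia and invadopodia. These genes are well known for their part in the migration of carcinoma cells, including squamous ones.

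Estimated counts summed to between 68532611 and 98036494 per library. TP63 was reduced to 25.9% of scramble in TE5 shTP63 and to 26.1% in KYSE140 shTP63, whereas SOX2 was at 39.5% of scramble in TE5 shSOX2 and at 77.1% in KYSE140 shSOX2, the weakest reduction of the 4. The other factor was not level in every library: SOX2 was at 67.1% of scramble in TE5 shTP63 and at 104% in KYSE140 shTP63, and TP63 was at 116% in TE5 shSOX2, 126% in KYSE140 shSOX2 and 85.9% in TE5 shCCAT1. CCAT1 was not matched in the annotation used here, so its silencing was not checked. Epithelial markers were present in every library. The summed TPM (a level adjusted for transcript length) was 682 to 19077 for 8 squamous markers and 853 to 1978 for 4 markers of simple epithelium. At least 1 TPM was reached by 8 squamous markers in each KYSE140 library and 7 in each TE5 library. Of the simple-epithelium markers, 2 reached it in each KYSE140 library and 3 in each TE5 library. For 6 fibroblast markers the sum was 13.5 to 44.9. Of these, 2 reached 1 TPM in TE5 shTP63 and TE5 shSOX2, and 1 did in each of the other libraries. The sums of 4 leukocyte markers (0.599 to 1.86) and of the 2 endothelial markers matched (0.692 to 9.28) were lower. The squamous list, which holds TP63 and SOX2 themselves, summed to 1488 in TE5 scramble, 682 in shTP63, 1243 in shSOX2 and 855 in shCCAT1, and to 14124 in KYSE140 scramble, 9251 in shTP63 and 19077 in shSOX2. Without these 2 genes the sums were 1271, 581, 1068 and 657 in TE5 and 13739, 8999 and 18720 in KYSE140, in the same order. They were thus below scramble in every knockdown library but KYSE140 shSOX2, where they were above it. Their part in the results below was not tested.

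The levels of the 10 genes in unsilenced cells differed over orders of magnitude. Levels between genes are given as TPM. FSCN1 was the most abundant of the 10 genes in all 7 libraries, with 621 TPM in TE5 scramble and 1001 TPM in KYSE140 scramble, above 99.4% and 99.5% of the genes detected there. Below fascin, the order differed between the lines. In TE5 scramble it was YES1 (126 TPM), SRC (84.4), PAK2 (68.0), LYN (54.3), PAK4 (45.8), FYN (45.2), MET (26.9), AXL (24.4) and PAK1 (21.9). In KYSE140 scramble it was FYN (105 TPM), PAK1 (92.8), PAK4 (92.6), PAK2 (47.7), YES1 (39.1), MET (37.2), SRC (18.8), AXL (11.2) and LYN (0.112). Neighbours such as PAK4 and FYN in TE5 or PAK1 and PAK4 in KYSE140 were too close to be ordered without replicates.

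**Figure D1:**
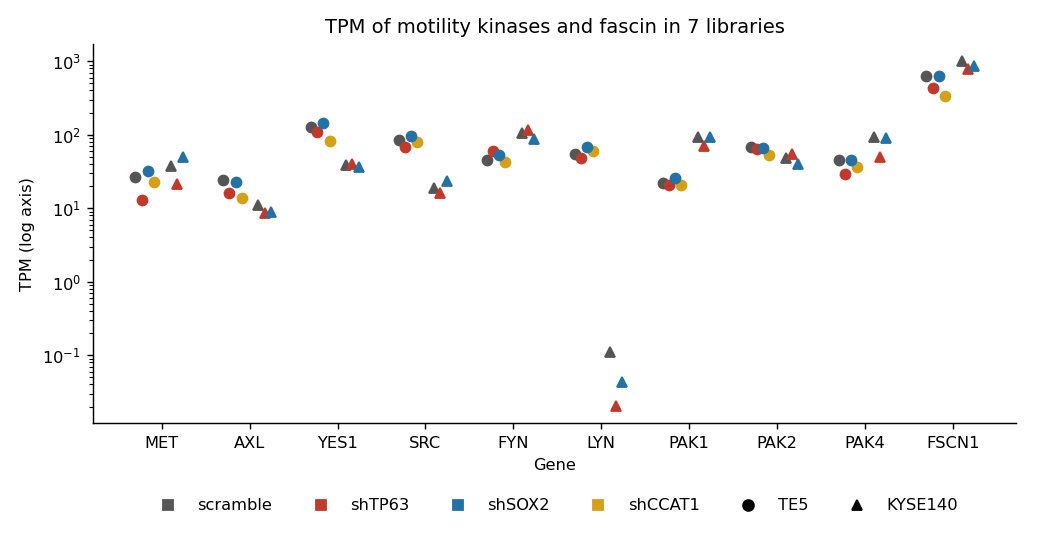
TPM (log axis) of the 10 genes in the 7 libraries, with circles for TE5, triangles for KYSE140 and colours for the shRNA. FSCN1 was highest in every library, and LYN was at 48.9 to 67.1 TPM in the TE5 libraries and at 0.112 TPM or less in KYSE140.

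The share of each gene in the summed TPM of its group differed between the lines. These shares describe RNA and not protein or activity. Of the summed TPM of the 4 SRC family kinases, YES1 made up 40.6% in TE5 scramble and FYN 14.6%, whereas FYN made up 64.4% in KYSE140 scramble and YES1 24.0%. Between 24.4% and 52.5% of FYN counts came from transcripts assigned by place and not by identifier, and the order above includes them. In KYSE140 scramble FYN had 8709 normalized counts and YES1 9954, so the lead of FYN there rests on the length adjustment of TPM. Of the 3 PAK kinases, PAK2 made up 50.1% and PAK1 16.1% in TE5 scramble, against 20.4% and 39.8% in KYSE140 scramble. PAK4 made up 33.8% in TE5 scramble and 39.7% in KYSE140 scramble. MET made up 52.4% of the sum of MET and AXL in TE5 scramble and 76.9% in KYSE140 scramble.

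The difference between the lines was tested with edgeR's quasi-likelihood test over 6 libraries (scramble, shTP63 and shSOX2 of both lines) with the condition as block and a Benjamini-Hochberg adjusted p under 0.1 as the limit. Of 26260 features (genes and transcripts left without a gene), 64.0% passed this limit, and 9 of the 10 genes did, a share to be read against that background. PAK1, SRC, YES1, PAK4 and FYN differed most among the genes counted in both lines. PAK1 was higher in KYSE140 by 2.12 on the log2 scale (SE 0.10, adjusted p = 3.98e-05), PAK4 by 1.23 (SE 0.11, adjusted p = 0.00024) and FYN by 1.18 (SE 0.11, adjusted p = 0.00033). SRC was lower there, with a log2 difference of -1.97 (SE 0.10, adjusted p = 4.97e-05), as was YES1, with -1.45 (SE 0.14, adjusted p = 0.000351). FSCN1 (0.93, adjusted p = 0.00114) and MET (0.60, adjusted p = 0.00475) were higher in KYSE140 and AXL was lower (-0.87, adjusted p = 0.00236). PAK2, the ubiquitous member of its family, gave -0.19 (SE 0.11, adjusted p = 0.197). LYN, a SRC family kinase best known from blood cells, had 9 counts over the 3 KYSE140 libraries and 24572 over the matching TE5 libraries. This is a ratio of 2248 for TE5 over KYSE140 (95% interval 1184 to 4917, counting error only, as for all intervals below). The lines were sequenced in different lanes, and line and lane cannot be told apart.

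TP63 silencing was compared with scramble within each line on normalized counts (TMM method), and changes past -0.58 or 0.58 on the log2 scale were counted, about 1.5 times, among genes that had a count of 10 or more in either library. In TE5 shTP63, 4 of the 10 genes fell past this limit (MET, PAK4, AXL and FSCN1) and 0 rose past it. Of all 24471 genes compared, 14.1% fell and 25.1% rose past it. Since the genes examined are deeply counted, the background was also taken over 10074 genes that reached 1000 normalized counts in either library, of which 15.8% fell and 6.87% rose. In KYSE140 shTP63, 2 of the 9 genes that could be compared fell past the limit (MET and PAK4) and 0 rose. There 9.95% of all genes fell and 16.3% rose, and among the deeply counted genes 5.9% fell and 2.27% rose. The median log2 fold change of the genes examined was -0.43 in TE5 and -0.32 in KYSE140, beside medians of 0.06 and 0.04 over all genes and of -0.14 and -0.02 over the deeply counted ones. LYN was below the count minimum in KYSE140 and was not compared there.

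MET lies at chr7:116312250-116438431 on the plus strand of hg19. Its normalized count in TE5 was 7904 in scramble, 3481 in shTP63, 9967 in shSOX2 and 6141 in shCCAT1, and in KYSE140 it was 10882 in scramble, 5989 in shTP63 and 14690 in shSOX2. In both lines the shTP63 library was the lowest and the shSOX2 library the highest. The log2 fold change against scramble upon TP63 silencing was -1.18 in TE5 (95% interval -1.24 to -1.13) and -0.86 in KYSE140 (-0.91 to -0.81). These values were lower than those of all but 3.85% and 5.46% of the genes compared in TE5 and KYSE140.

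PAK4, a kinase that phosphorylates LIMK1, lies at chr19:39616410-39673456 on the plus strand. Its normalized count was 6312 in TE5 scramble, 3265 in shTP63, 6019 in shSOX2 and 4216 in shCCAT1, and in KYSE140 it was 13967 in scramble, 7481 in shTP63 and 15401 in shSOX2. The shTP63 library was again the lowest of each line. TP63 silencing gave a log2 fold change of -0.95 in TE5 (-1.01 to -0.89) and -0.90 in KYSE140 (-0.94 to -0.86). Between 28.9% and 48.2% of the PAK4 counts came from a transcript that was assigned by its place in the tables and not by its identifier. Without it the values were -1.12 and -0.88.

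MET and PAK4 were the only genes of the 10 past the limit in both lines upon TP63 silencing, and both stayed past it under each scaling, count of transcripts and pseudocount tried. The 250 bases before their transcription start are therefore shown, from RefSeq (GRCh38.p14, plus strand), for MET at chr7:116671946-116672195 and for PAK4 at chr19:39125536-39125785. Capitals mark GC boxes (GGGCGG on either strand), a motif bound by SP family factors.
MET: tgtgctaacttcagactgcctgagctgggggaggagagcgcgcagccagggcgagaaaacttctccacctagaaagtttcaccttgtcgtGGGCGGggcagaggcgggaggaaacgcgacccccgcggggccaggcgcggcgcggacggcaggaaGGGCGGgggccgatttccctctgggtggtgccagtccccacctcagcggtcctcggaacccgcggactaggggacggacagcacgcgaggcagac
PAK4: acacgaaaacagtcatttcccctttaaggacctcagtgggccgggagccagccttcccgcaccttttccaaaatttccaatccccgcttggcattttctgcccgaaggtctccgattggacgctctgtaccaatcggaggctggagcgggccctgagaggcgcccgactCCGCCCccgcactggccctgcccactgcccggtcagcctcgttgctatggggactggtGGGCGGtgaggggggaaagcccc
Each window held 2 GC boxes, a motif found in 42.6% of 35116 promoter windows of that length. The GC content was 68.4% for MET and 63.2% for PAK4, beside a median of 58.0% over all windows. Searched on both strands, the p53 family pair of half-sites CATGNNNNNNCATG (in 0.296% of all windows) and the SOX core ACAAAG (in 13.7%) had no match in either window. Most windows lack either motif, so their absence shows nothing about binding. The study placed most TP63 and SOX2 peaks in introns or between genes, and such regions were not searched. Of the other genes, AXL, YES1, FYN, PAK1 and PAK2 had an entry in this table. PAK2 had 1 match to the SOX core and the other four had none, and all of them held GC boxes.

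AXL and FSCN1 fell past the limit upon TP63 silencing in TE5 only, and the difference between the lines was not tested. AXL counted 5141 in TE5 scramble and 3147 in shTP63 (-0.71, -0.77 to -0.65), against 2689 and 2110 in KYSE140 (-0.35, -0.44 to -0.26). FSCN1 counted 91099 and 57180 in TE5 (-0.67, -0.69 to -0.66) and 166349 and 129136 in KYSE140 (-0.37, -0.38 to -0.35). With libraries scaled by their total counts alone, both stayed below 0 in TE5 but were within the limit, at -0.57 for AXL and -0.53 for FSCN1, and with TPM FSCN1 was at -0.50.

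The SRC family kinases stayed within the limit upon TP63 silencing. SRC itself counted 14866 in TE5 scramble and 10864 in shTP63 (-0.45, -0.49 to -0.42), and 3580 and 2866 in KYSE140 (-0.32, -0.40 to -0.25). YES1 counted 27371 and 22111 in TE5 (-0.31, -0.33 to -0.28), and 9954 and 9940 in KYSE140, where the interval of -0.04 to 0.04 included 0. LYN counted 8011 and 6081 in TE5 (-0.40, -0.44 to -0.35). FYN had the opposite sign, with 3729 and 4154 in TE5 (0.16, 0.09 to 0.22) and 8709 and 10148 in KYSE140 (0.22, 0.18 to 0.27). Between 24.4% and 52.5% of FYN counts came from transcripts assigned by place, and over protein-coding transcripts alone FYN passed the limit in KYSE140, at 0.60.

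The other PAK kinases differed less from scramble than PAK4. PAK1 counted 2698 in TE5 scramble and 2214 in shTP63 (-0.29, -0.36 to -0.21), and 11495 and 9767 in KYSE140 (-0.23, -0.28 to -0.19). PAK2 counted 18843 and 17731 in TE5 (-0.09, -0.12 to -0.06), and 16165 and 17708 in KYSE140 (0.13, 0.10 to 0.16). The sign of PAK2 in TE5 turned with total counts alone (0.05). PAK4 made up 39.7% of the summed PAK TPM in KYSE140 scramble and 28.0% in shTP63, and 33.8% and 25.6% in TE5.

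**Figure D2:**
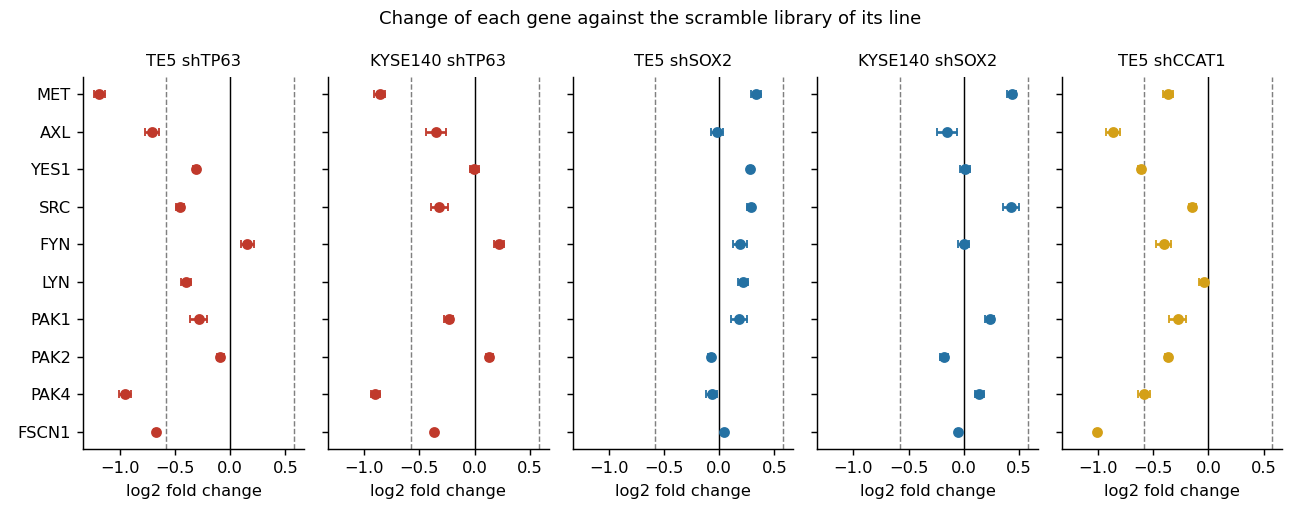
Log2 fold change of each gene against the scramble library of its line (x axis), with 95% counting intervals as bars and dashed lines at the -0.58 and 0.58 limits. MET and PAK4 lie left of the lower limit in both shTP63 panels, and every gene lies within the limits in both shSOX2 panels. LYN is missing in KYSE140, where it was below the count minimum.

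SOX2 silencing was compared in the same way, with the same scramble libraries. In TE5 shSOX2, 0 of the 10 genes fell or rose past the limit, beside 11.7% and 13.1% of all 22792 genes and 5.28% and 2.98% of the deeply counted ones. In KYSE140 shSOX2, 0 of 9 did, beside 12.9% and 14.1% of all 20809 genes and 5.41% and 4.57% of the deeply counted ones. SOX2 itself was still at 77.1% of scramble in KYSE140 shSOX2, against 39.5% in TE5 shSOX2, so little can be read there about stronger silencing. MET was above scramble in both lines, with a log2 fold change of 0.33 (0.29 to 0.38) in TE5 and 0.43 (0.39 to 0.47) in KYSE140. SRC was as well, with 18126 normalized counts in TE5 shSOX2 (0.29, 0.25 to 0.32) and 4824 in KYSE140 shSOX2 (0.43, 0.36 to 0.50). PAK1 gave 0.18 in TE5 and 0.23 in KYSE140, and PAK2 -0.07 and -0.18. YES1 gave 0.28 (0.26 to 0.31) in TE5 and 0.01 (-0.04 to 0.06) in KYSE140, LYN 0.22 in TE5, FYN 0.19 and 0.00 (interval -0.05 to 0.05), and AXL -0.02 and -0.15. PAK4 (-0.07 and 0.14) and FSCN1 (0.05 and -0.06) had opposite signs in the lines, a difference that was not tested. The signs of PAK4 were the same in both lines under other settings: PAK4 in TE5 was at 0.12 with protein-coding transcripts only and with identifier matches only, and in KYSE140 it was at -0.03 with TPM. FYN in KYSE140 was at 0.49 with protein-coding transcripts only and at 0.34 with identifier matches only, and YES1 there was at -0.08 with total counts alone. The median over the genes examined was 0.18 in TE5 and 0.01 in KYSE140.

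CCAT1 silencing was measured in TE5 only. In TE5 shCCAT1, 4 of the 10 genes fell past the limit (FSCN1, AXL, YES1 and PAK4) and 0 rose. YES1 and PAK4 are among the genes that the study named from this same comparison, so this count was partly fixed by the choice of genes and nothing is read from it. Of all 24176 genes, 12.0% fell and 19.7% rose past it, and of the 9971 deeply counted genes 5.68% fell and 1.2% rose. FSCN1 was lower here than in the other TE5 libraries, with 45261 normalized counts and a log2 fold change of -1.01 (-1.02 to -0.99). AXL counted 2827 (-0.86, -0.93 to -0.80), YES1 17913 (-0.61, -0.64 to -0.59) and PAK4 4216 (-0.58, -0.64 to -0.53). The limit lies inside the last interval, and with total counts alone only AXL (-0.69) and FSCN1 (-0.83) stayed past it, with YES1 at -0.44 and PAK4 at -0.41. With TPM, PAK4 was at -0.33. MET was at -0.36 (-0.41 to -0.32), PAK2 at -0.36, FYN at -0.40, PAK1 at -0.28, SRC at -0.14 and LYN at -0.04, and the signs of SRC (0.03) and LYN (0.13) turned with total counts alone. FYN was past the limit with protein-coding transcripts only, at -1.05. The median was -0.38, beside 0.02 over all genes and -0.10 over the deeply counted ones.

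Both lines were then fitted together with edgeR's quasi-likelihood test on counts rounded to whole numbers, with the cell line as block and the lines as the replicates (2 residual degrees of freedom). For TP63 against scramble, 0 of the 10 genes passed the adjusted p of 0.1, and neither did any other feature (0.0% of 26260), although 3447 features and 5 of the 10 genes had an unadjusted p under 0.05. DESeq2 called 2029 features and 5 genes of the 10 in the same contrast. MET was at -1.02 (SE 0.14, adjusted p = 0.134), PAK4 at -0.92 (SE 0.13, adjusted p = 0.136), AXL at -0.52 (SE 0.16, adjusted p = 0.288), FSCN1 at -0.51 (SE 0.15, adjusted p = 0.267) and SRC at -0.38 (SE 0.12, adjusted p = 0.295). The 5 genes called by DESeq2 were these, with adjusted p of 2.79e-08 for MET and 8.32e-08 for PAK4. Over 13 fits, this one and 12 with another setting or 1 library left out, MET and PAK4 each passed in 8, among them those without either SOX2 or either TP63 library.

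For SOX2 against scramble, 0 of the 10 genes passed with edgeR or DESeq2, beside 0.0533% of all features with edgeR (14, all lower). Unadjusted, 2 of the 10 were under 0.05, beside 2250 of all 26260 features: MET (0.36, SE 0.13, adjusted p = 0.557) and SRC (0.33, SE 0.12, adjusted p = 0.554).

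TP63 against SOX2 silencing compared libraries that shared a lane, without scramble on either side. Here 3 of the 10 genes passed the adjusted p of 0.1 with edgeR, beside 2.21% of all features (581, of which 351 were lower with shTP63), and all 3 were lower with shTP63. MET was lower by the most, with a log2 fold change of -1.38 (SE 0.14, adjusted p = 0.0403). PAK4 gave -0.93 (SE 0.13, adjusted p = 0.0619) and SRC -0.72 (SE 0.12, adjusted p = 0.081). This contrast joins a lower level with shTP63 and any higher level with shSOX2. Against scramble in the same fit, SRC was at -0.38 with shTP63 and at 0.33 with shSOX2. MET was at -1.02 and 0.36, and PAK4 at -0.92 and 0.01. The single libraries showed the same order in both lines: MET was at -1.52 in TE5 and -1.29 in KYSE140, PAK4 at -0.88 and -1.04, and SRC at -0.74 and -0.75. FSCN1 (-0.48, adjusted p = 0.206), PAK1 (-0.44, adjusted p = 0.178), AXL (-0.41, adjusted p = 0.297) and LYN (-0.52, adjusted p = 0.436, counted in TE5 only) did not pass, nor did YES1, FYN and PAK2. The median over the 10 genes was -0.46, beside 0.04 over all features. Many of these features had far fewer counts than the genes examined. Neither the share of 2.21% nor this median was taken over deeply counted genes alone, so how unusual the 10 genes are among those was not tested. Without the cell line block 0 of the 10 genes passed, and leaving out either scramble library also left 0. With another library left out MET passed each time, PAK4 each time but without KYSE140 shSOX2, and SRC only without KYSE140 shTP63.

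**Figure D3:**
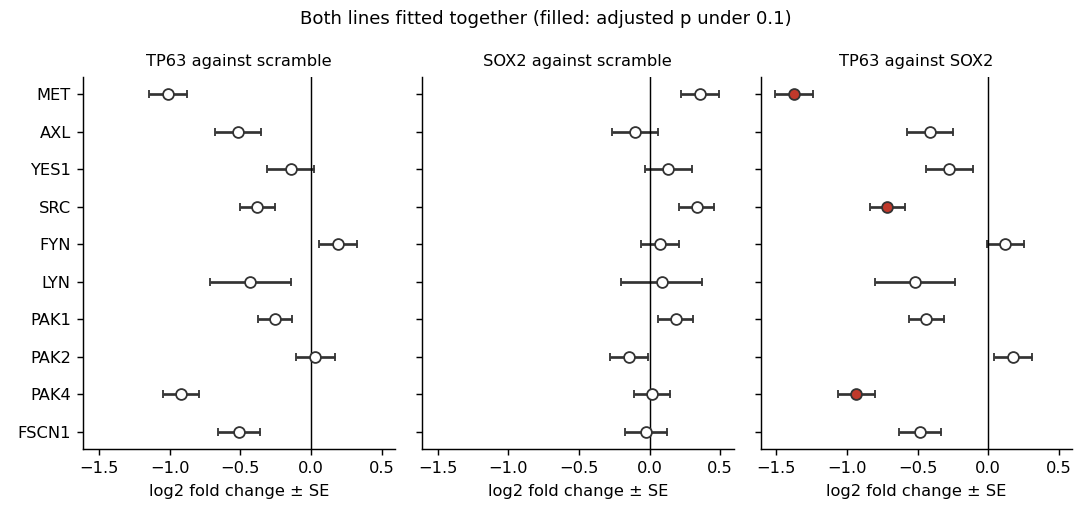
Log2 fold change of each gene from the edgeR fit over both lines (points) with its SE (bars), for 3 contrasts, with filled points where the adjusted p was under 0.1. Only MET, PAK4 and SRC in TP63 against SOX2 are filled, at -1.38, -0.93 and -0.72.

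Within the lane of the TE5 knockdown libraries, shCCAT1 and shTP63 could be compared directly, with 1 library each. MET was lower in shTP63, at -0.82 against shCCAT1 (-0.87 to -0.77). FSCN1 was higher in shTP63 (0.34, 0.32 to 0.35), as were YES1 (0.30, 0.28 to 0.33) and FYN (0.56, 0.50 to 0.62). Against shSOX2, FSCN1 in shTP63 was at -0.72 (-0.73 to -0.70), and shSOX2 stood above shCCAT1 by 1.05 (1.04 to 1.07).

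Transcript make-up differed between the lines for AXL. The genes were made up of 1 dominant transcript in every library for MET (MET-202, 93.8% to 97.6% of counts), YES1 (YES1-201, 92.6% to 96.1%), PAK2 (PAK2-201, 97.5% to 98.9%) and FSCN1 (FSCN1-201, 98.0% to 99.6%). AXL had a pair of main transcripts whose coding sequences differ by 27 bases, or 9 residues. AXL-201 encodes 894 residues and AXL-202, which lacks exon 10 of 20, encodes 885. The exon is shown in capitals, with 20 intronic bases on each side, from the plus strand of hg19, exon at chr19:41745599-41745625.
AXL exon 10: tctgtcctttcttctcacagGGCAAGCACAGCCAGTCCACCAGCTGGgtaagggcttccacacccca
AXL-201 made up 58.1% of the counts of the pair in TE5 scramble (95% Wilson interval 56.7 to 59.5), 74.3% in TE5 shTP63 (72.8 to 75.7), 65.2% in TE5 shSOX2 (63.8 to 66.5) and 72.4% in TE5 shCCAT1 (70.9 to 73.9). It made up 88.2% in KYSE140 scramble (86.6 to 89.7), 94.5% in KYSE140 shTP63 (93.4 to 95.4) and 86.0% in KYSE140 shSOX2 (84.2 to 87.5). The 3 KYSE140 libraries thus lay above the 4 TE5 libraries, and the shTP63 library was the highest of each line. The estimated counts, not scaled between libraries, of AXL-202 were 1991 in TE5 scramble and 955 in TE5 shTP63, and those of AXL-201 were 2759 and 2758. The effective library size (after TMM) was 79686905 in TE5 scramble and 106835262 in TE5 shTP63, so equal counts stand for a lower level in shTP63. These transcripts also differ at their ends, and the file's AXL-201 is 4737 bases long where the annotation has 4717, so the share is not a measure of the exon alone.

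LYN in TE5 also came as a pair of transcripts that differ by 21 residues of the coding sequence. The longer, LYN-202 (512 residues in the annotation), made up 30.0% of the pair in scramble (28.99 to 31.04), 22.8% in shTP63 (21.9 to 23.8), 28.5% in shSOX2 (27.5 to 29.4) and 24.2% in shCCAT1 (23.3 to 25.0). For PAK4, the transcript of 1773 coding bases (PAK4-202) held 38.4% to 42.5% of counts in KYSE140 and 19.2% to 33.0% in TE5, and the lower level with shTP63 was not confined to it: PAK4-201 (1503 coding bases) held 25.7% in TE5 scramble and 17.7% in shTP63.

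**Figure D4:**
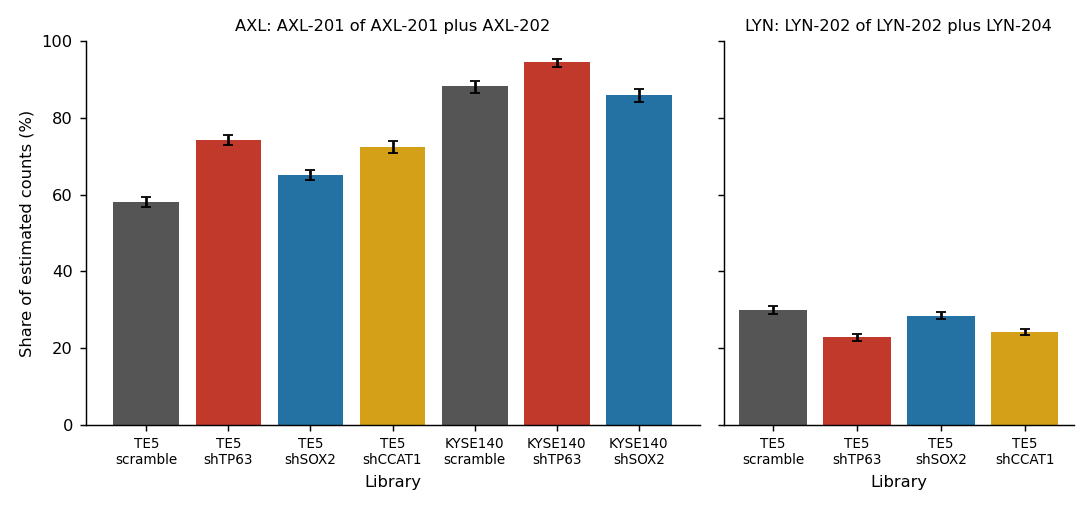
Share of estimated counts (%) of the longer transcript within the AXL pair (left, 7 libraries) and the LYN pair (right, 4 TE5 libraries), with 95% Wilson intervals as bars. AXL-201 ranged from 58.1% in TE5 scramble to 94.5% in KYSE140 shTP63, and LYN-202 from 22.8% to 30.0%.

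Reads of some of these genes could be shared with close copies. Of the 31-base words in the annotated transcripts of YES1, 14.1% occurred in another gene, 4.77% in the pseudogene YES1P1. For FSCN1 the shares were 10.5% and 9.79% (FSCN1P1). PAK1 shared 15.3% and PAK2 8.57%, mostly with genes that have no symbol, and the shares were 5.29% for PAK4, 4.11% for LYN, 3.98% for AXL, 2.00% for MET, 0.13% for FYN and 0.0% for SRC.

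Partners of these kinases were described from a list of 66 genes: ligands, related receptors, adaptors, other SRC family kinases, focal adhesion, GTPase and actin genes. In TP63 against SOX2, 3 of the 62 list genes tested were lower with shTP63 and 1 was higher, at a median of -0.18. Of all 26260 features, 351 were lower and 230 higher. The focal adhesion kinase PTK2, which docks SRC, was at -1.04 (SE 0.15, adjusted p = 0.0619). The adaptor GRB2, which binds phosphorylated MET, gave -0.94 (SE 0.14, adjusted p = 0.0646) and the phosphatase PTPN1 -0.87 (SE 0.13, adjusted p = 0.0659). The formin DIAPH1, which elongates actin filaments, was higher (0.73, SE 0.13, adjusted p = 0.0815). In both contrasts with scramble, 0 of 62 passed with edgeR. DESeq2 called 10 lower and 3 higher for TP63 against scramble and 2 and 2 for SOX2 against scramble. Of all 26260 features, DESeq2 called 1472 lower and 557 higher for TP63 against scramble, and 496 and 260 for SOX2 against scramble.

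In single pairs, 12 of 61 list genes fell and 7 rose past the limit in TE5 shTP63, and 12 of 62 fell and 6 rose in KYSE140 shTP63. Of all genes, 14.1% fell and 25.1% rose in TE5 shTP63, and 9.95% fell and 16.3% rose in KYSE140 shTP63. Of the deeply counted ones, 15.8% fell and 6.87% rose in TE5, and 5.9% fell and 2.27% rose in KYSE140. Among list genes with at least 100 normalized counts, PTK2 was one of the 3 lowest log2 fold changes in both lines, with 13216 normalized counts in TE5 scramble and 6467 in shTP63 (-1.03) and 16679 and 8488 in KYSE140 (-0.97). The other 2 lowest were MYLK (myosin light chain kinase, -1.40) and VCL (vinculin, -1.16) in TE5, and PAK5 (-2.12) and GAS6 (-1.005) in KYSE140. GAS6, the ligand of AXL, had 4362 normalized counts in KYSE140 scramble and 2173 in shTP63, and 2473 and 1514 in TE5. The 3 highest were EPHA2 (0.79), MYL9 (0.79) and SPINT1 (0.73) in TE5 and PROS1 (1.14), MERTK (1.07) and PAG1 (0.80) in KYSE140. HGF, the ligand of MET, was nearly absent in every library, with 0.147 TPM at most.

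Upon SOX2 silencing 1 of 60 list genes fell and 3 rose past the limit in TE5, and 6 of 61 fell and 6 rose in KYSE140. Of all genes, 11.7% fell and 13.1% rose in TE5, and 12.9% fell and 14.1% rose in KYSE140. Lowest and highest refer here, and for shCCAT1 below, to list genes with at least 100 normalized counts in either library. Some list genes with fewer counts had larger changes. MYLK had the lowest log2 fold change in both lines (-1.94 in TE5 and -0.76 in KYSE140). It was followed by FSCN2 (-0.53) and DIAPH1 (-0.51) in TE5 and by VCL (-0.63) and SPINT2 (-0.58) in KYSE140. The highest were PAG1 (0.68), MERTK (0.51) and CDC42 (0.39) in TE5 and PAG1 (1.20), PAK6 (0.95) and MST1R (0.66) in KYSE140. PAG1 is an adaptor that recruits the SRC inhibitor CSK. In TE5 shCCAT1, 7 of 63 list genes fell and 5 rose, beside 12.0% and 19.7% of all genes. The list median there was -0.30, beside -0.38 over the 10 genes examined. PAG1 (-0.83) and MERTK (-0.64) were among the lowest there, and MYL9 (0.77), FSCN2 (0.42) and NCK1 (0.34) were the highest. Between the lines 22 of the 62 list genes were lower in KYSE140 and 21 higher, at a median of 0.01. Of all 26260 features, 8747 were lower and 8058 higher. MYL9, the myosin regulatory light chain, had 0 counts in the KYSE140 scramble, shTP63 and shSOX2 libraries and 1480 normalized counts in TE5 scramble.

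**Figure D5:**
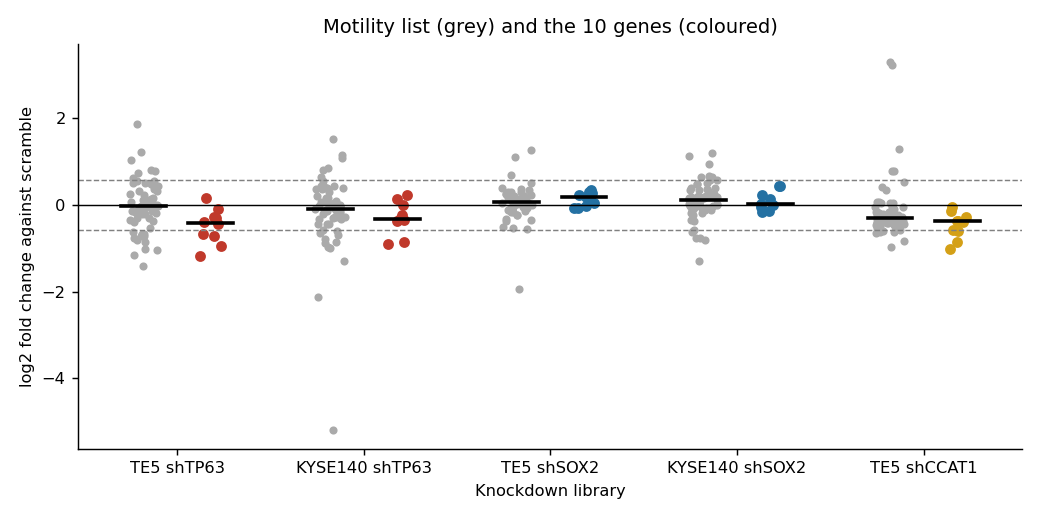
Log2 fold change against scramble (y axis) of the motility list (grey points, 60 to 63 genes) and of the 9 or 10 genes examined (coloured points) in the 5 knockdown libraries, with medians as bars and the limits dashed. The coloured medians were -0.43 and -0.32 with shTP63 in TE5 and KYSE140, where the list medians were -0.02 and -0.09. With shSOX2 they were 0.18 and 0.01, where the list medians were 0.07 and 0.11. In TE5 shCCAT1 the coloured median was -0.38 and the list median -0.30.

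Genes whose pattern was most like that of MET, PAK4, FSCN1 and YES1 were taken from 12386 genes with at least 100 normalized counts in every library. The measure was Pearson's r of log2 CPM over the 7 libraries after subtraction of each line's mean, given as a description of points that share lanes and controls. MET was closest to SEL1L (r = 0.999), JAG1 (0.997) and MATN2 (0.995). JAG1, a Notch ligand, had 15973, 7659, 21517 and 13829 normalized counts in TE5 scramble, shTP63, shSOX2 and shCCAT1. PAK4 was closest to MMGT1 (0.997), FAM131C (0.997) and NFE2L1 (0.994). FSCN1 was closest to CORO1C (0.998), an actin-binding coronin, ICAM5 (0.994) and HK1 (0.989), and YES1 to ZNF134 (0.994), EFNB3 (0.988) and SLC26A6 (0.986). Pearson's r leaves out the size of a change. CORO1C had 25003 normalized counts in TE5 scramble and 19309 in shCCAT1, where FSCN1 had 91099 and 45261. Among the 10 genes themselves, MET was closest to SRC (0.969) and PAK4 (0.952), and FSCN1 to AXL (0.987) and YES1 (0.920). In bulk RNA, a lower level cannot be told apart from fewer cells of a kind that express the gene.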

How the data were processed

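RNA-Seq data of 7 libraries (TE5 scramble, shTP63, shSOX2 and shCCAT1, and KYSE140 scramble, shTP63 and shSOX2) were analysed. The authors pseudoaligned 100-base paired-end reads with Kallisto (version not given in the sources used here) to the hg19 Ensembl transcriptome (release 82) and deposited an estimated count and a TPM value for each of 196354 transcripts. Lengths were deposited as well.

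Transcripts were assigned to genes by identifier with GENCODE 44 mapped to hg19 (182863 transcripts, 93.6% of counts). A further 7011 (3.72%) were assigned where both neighbouring rows belonged to 1 gene, a step settled after the files were examined. The remaining 6480 (2.70%) entered the fit as single features. Library sizes were corrected with TMM factors (edgeR 4.0.16 in R 4.3.3). Log2 fold changes were log2((shRNA + 1)/(scramble + 1)), with exact conditional 95% intervals that cover counting error only and no p-value. The edgeR quasi-likelihood fit used counts rounded to whole numbers, the filterByExpr filter and, as pairing, the cell line as block, since the libraries of a line come from the same cells. It was run on simulated counts that varied less than these data (common dispersion of the fit 0.064) and held no difference between the lines. That run therefore does not show how the fit behaves on these data. DESeq2 1.42.0 was an alternative. Scaling, filter, pseudocount, transcript set, block and left-out libraries were varied.

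The genes and lists were chosen with earlier results of these data known. The named list genes are the 3 lowest and 3 highest per pair with at least 100 normalized counts and those past the adjusted p, and the named like genes are the 3 with the highest r. Protein sequences were not analysed here. A gene of the list that the rule would name is not reported here.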

Additional observations from a re-analysis of the deposited data

Results flagged for a closer look

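PAK4 and FSCN1 had opposite signs in the lines upon SOX2 silencing, each with a counting interval that excluded 0 and with the same sign whether libraries were scaled by TMM, by DESeq2's size factors or by total counts. The log2 fold change of PAK4 was -0.069 in TE5 and 0.14 in KYSE140, and that of FSCN1 was 0.045 in TE5 and -0.055 in KYSE140. The opposite signs of PAK4 did not hold under every setting: PAK4 in TE5 was at 0.12 with protein-coding transcripts only and with identifier matches only, and in KYSE140 it was at -0.03 with TPM. With 1 library per condition in each line the difference between the lines was not tested. SOX2 was at 39.5% of scramble in TE5 shSOX2 and at 77.1% in KYSE140 shSOX2.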

How the results depend on the processing

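Over 292 results, 1175 alternative values were computed. MET kept its sign in all 13 fits of the 3 shRNA contrasts and passed the adjusted p of 0.1 in 8 of them for TP63 against scramble and in 10 for TP63 against SOX2. PAK4 passed in 8 and 9, and SRC in 1 and 7. For TP63 against scramble, the 0 features and 0 of the 10 genes called became 669 and 2 without the filter, 288 and 2 without unassigned transcripts, 220 and 2 with identifier matches only (an alternative added after the data were seen) and 2029 and 5 with DESeq2. MET and PAK4 were the genes wherever 2 were called. Leaving out 1 library gave 0 to 1623 features and 0 to 4 genes, the highest without KYSE140 shTP63. For SOX2 against scramble, the 14 features became 184 without the filter, 38, 34 and 756 in the same order of alternatives, 0 without the cell line block, and 0 to 466 with 1 library left out (0 without either scramble library, 284 without KYSE140 shTP63, 79 without KYSE140 shSOX2, 466 without TE5 shTP63 and 124 without TE5 shSOX2). For TP63 against SOX2, the 581 features became 1416, 1155, 988 and 2797, and 0 without the block. The 3 genes became 5 with DESeq2, 0 without the block, 0 without TE5 scramble or KYSE140 scramble (0 features each), 1 without KYSE140 shSOX2 (MET), 2 without TE5 shTP63 or TE5 shSOX2 (MET and PAK4) and 4 without KYSE140 shTP63 (1925 features). Between the lines, 8 genes passed without the condition block, and MET did not (0.56).

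With 1 library left out, some values near 0 changed sign. For TP63 against scramble, YES1 ranged from -0.38 to 0.047 and PAK2 from -0.12 to 0.14. For SOX2 against scramble, AXL ranged from -0.28 to 0.070, YES1 from -0.10 to 0.36, FYN from -0.050 to 0.21, PAK4 from -0.053 to 0.095, FSCN1 from -0.17 to 0.12 and LYN from -2.02 to 0.19, and LYN gave -0.17 with DESeq2. For TP63 against SOX2, FYN ranged from -0.021 to 0.23 and LYN from -0.65 to 1.57. The cause of these changes was not tested. Where a library was left out, the lone sample of a group was assumed to vary like the others.

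With total counts alone, 2 of the 10 genes fell past 0.58 in TE5 shTP63 and 2 in TE5 shCCAT1, in place of 4 each. With protein-coding transcripts only, 1 gene (FYN) rose in KYSE140 shTP63, in place of 0. Total counts raised the median of all genes by 0.14 in TE5 shTP63 and by 0.17 in TE5 shCCAT1, and the share of rises among genes past 0.58 went from 64.0% to 74.9% and from 62.1% to 74.9%. TPM shifted the medians by 0.14, 0.11 and, in KYSE140 shSOX2, by -0.14.

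The number of all genes past 0.58 either way depended on the filter. It was 9604 in TE5 shTP63 (17799 with at least 1 count, 5488 with at least 50, 2280 with at least 1000 normalized counts), 5661 in TE5 shSOX2 (14433, 2503 and 823), 7680 in TE5 shCCAT1 (15126, 3331 and 686), 5754 in KYSE140 shTP63 (13546, 2492 and 818) and 5611 in KYSE140 shSOX2 (13419, 2606 and 1003). The number past 1 was 4913 in TE5 shTP63 (10757 with at least 1 count, 2167 with at least 50, 2687 with a pseudocount of 10), 2495 in TE5 shSOX2 (9782, 674 and 1111), 4239 in TE5 shCCAT1 (10490, 1161 and 2117), 2812 in KYSE140 shTP63 (8231, 764 and 1356) and 2693 in KYSE140 shSOX2 (9306, 847 and 1586). The comparison of protein sequences was not run.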
